A study of Homo sapiens with 6 samples.

Results

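In THP-1, a human cell line from an acute monocytic leukaemia, the RNA of 9 genes of the azurophil granule and the promyelocyte stage was followed: MPO, ELANE, PRTN3, AZU1, CTSG, BPI, CEACAM6, SRGN and LYZ. They were chosen by name, with earlier results of these data known, and each matched 1 Ensembl identifier among 78653 genes. The cells carried either an empty vector (EV, 3 libraries) or a vector that overexpresses PTX4 (PTX4-OE, 3 libraries), in each case after stable transduction, and replicates are numbered 1 to 3 in both groups. Pentraxin 4, the product of PTX4, belongs to a family of soluble pattern recognition proteins. All 6 libraries came from THP-1 cultures in the same serum-containing medium, described as biological replicates. The sources used here give neither the promoter of the construct nor whether the lines were clones or pools. The comparison of PTX4-OE with EV asked which transcripts overexpressed PTX4 changes.

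Azurophil granules are the lysosome-like storage granules that neutrophil and monocyte precursors build at the promyelocyte stage. Many of their genes are switched on early in myeloid differentiation, by factors that include PU.1, C/EBP proteins, MYB and RUNX1. These genes are shut down as the cell matures, so that mature neutrophils carry those proteins with little of the mRNA. The granule holds the haem enzyme myeloperoxidase, a family of serine proteases, bactericidal proteins and lysozyme, packed on the proteoglycan serglycin.

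Depth was 29670641 to 37718207 expected counts per library. PTX4 had 0 to 4 counts in the EV libraries and 14398 to 24633 in the PTX4-OE libraries, which matched the labels. The mitochondrial share of counts stood apart in PTX4-OE replicate 1, at 2.79% against 4.75% to 5.91% elsewhere. Of the monocytic markers, SPI1, which encodes PU.1, and the surface lectin gene CD33 stood at 252.5 to 287.3 and 36.2 to 40.4 TPM. CD14 was low, at 0.84 to 1.83 TPM, and CD4 had at most 5 counts in any library. Of the 8 tested monocytic markers CSF1R, the receptor for M-CSF, was lower with the replicate block used below (-0.30, SE 0.056, edgeR adjusted p = 0.0427), and the other 7 did not pass. TPM is the deposited unit scaled for gene length, and it is used here to compare levels between genes. Of 7 markers of mature neutrophils, CXCR2 alone was above the filter on low counts, at 7.64 to 9.46 TPM, and MME was at 0 in every library. Of the markers of other lineages, all 6 erythroid genes and all 6 T or NK cell genes were below the filter, and their summed levels reached at most 0.24 and 0.14 TPM. The summed level of 8 eosinophil, basophil and mast cell genes was 2.52 to 8.02 TPM in EV and 1.60 to 5.62 in PTX4-OE, mostly from PRG2, which encodes major basic protein and did not pass the test between the vectors (log2 fold change -0.87 with replicate pairs as a block, edgeR adjusted p = 0.0736). The B cell list summed to 3.21 to 4.68 TPM in EV and 4.58 to 5.20 in PTX4-OE, with MS4A1 at 0 in every library. All 4 tested B cell genes had positive values (median log2 fold change 0.38 with the block), and 0 passed. The lineage factor gene PAX5, at 0.24 to 0.94 TPM, was higher in all 3 pairs (0.76, edgeR adjusted p = 0.0692). Epithelial and fibroblast lists summed to at most 2.07 and 0.52 TPM in any library. The part of these markers in the results was not tested.

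The promoters of 4 of the 9 genes, PRTN3, AZU1, CTSG and CEACAM6, were found in the RefSeq table (GRCh38.p14), and all 4 are shown. Each run holds the 250 bases before the RefSeq start, which for AZU1 and CEACAM6 lies inside the GENCODE span given further on, 5′ to 3′ on the strand of the gene. The runs lie at chr19:840749-840998 (plus strand) for PRTN3, chr19:827587-827836 (plus) for AZU1, chr14:24576251-24576500 (minus) for CTSG and chr19:41755280-41755529 (plus) for CEACAM6. Capitals mark matches on either strand to 3 short letter patterns, TTNNGNAA for C/EBP proteins, GAGGAA for PU.1 and AACNGNC for MYB, which were picked with these sequences in view. No matches overlapped.
PRTN3: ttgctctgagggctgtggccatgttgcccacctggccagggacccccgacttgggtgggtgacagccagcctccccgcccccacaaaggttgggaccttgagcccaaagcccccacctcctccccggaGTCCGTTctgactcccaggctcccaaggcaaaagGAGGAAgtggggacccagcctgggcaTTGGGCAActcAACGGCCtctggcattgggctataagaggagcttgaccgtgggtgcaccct
AZU1: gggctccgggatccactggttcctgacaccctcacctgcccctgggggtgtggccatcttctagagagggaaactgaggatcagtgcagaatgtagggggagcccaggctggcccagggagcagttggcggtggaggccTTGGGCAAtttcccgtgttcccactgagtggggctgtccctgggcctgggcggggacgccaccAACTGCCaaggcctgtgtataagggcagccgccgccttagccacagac
CTSG: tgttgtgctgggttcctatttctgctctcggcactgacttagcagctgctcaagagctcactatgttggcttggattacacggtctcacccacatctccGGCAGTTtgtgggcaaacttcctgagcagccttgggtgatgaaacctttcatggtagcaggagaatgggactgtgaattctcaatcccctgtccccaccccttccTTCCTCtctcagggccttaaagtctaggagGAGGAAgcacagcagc
CEACAM6: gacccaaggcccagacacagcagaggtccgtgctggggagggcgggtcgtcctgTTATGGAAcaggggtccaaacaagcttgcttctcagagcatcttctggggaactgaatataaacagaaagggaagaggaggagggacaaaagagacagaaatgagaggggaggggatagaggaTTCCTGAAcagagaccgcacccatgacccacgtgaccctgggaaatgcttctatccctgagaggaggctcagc

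The same C/EBP-type letters, TTGGGCAA, occurred in PRTN3 (62 to 55 bases before the start) and in AZU1 (111 to 104 bases before it), each followed by a MYB-type match closer to the start. PRTN3 held matches to all 3 patterns, CTSG held PU.1-type and MYB-type matches, and CEACAM6 held C/EBP-type matches only. These are matches of letters and not measured binding. Among 34943 RefSeq windows of the same length, 33.2% held the C/EBP pattern, 23.6% the PU.1 pattern, 26.9% the MYB pattern and 2.4% all 3. MPO, ELANE, BPI, SRGN and LYZ were not among the 4.

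In the EV cells the transcripts of the granule serine protease family were among the most abundant of the cell, whereas MPO, CEACAM6 and BPI were low. PRTN3, which encodes proteinase 3, averaged 1985 ± 810 TPM (SD, n = 3) and ELANE, which encodes neutrophil elastase, 1592 ± 190. SRGN, the serglycin core protein, followed with 1349 ± 87.7, AZU1 with 1129 ± 180 and CTSG, cathepsin G, with 818 ± 97.4. AZU1 encodes azurocidin, a member of the same fold that has lost protease activity and kills bacteria by binding their envelope. In this order the EV ranges of PRTN3 and ELANE, of ELANE and SRGN and of SRGN and AZU1 overlapped, whereas AZU1 (953.0 to 1311.9 TPM) and CTSG (727.7 to 921.1 TPM) did not overlap. Within each EV library ELANE was above SRGN, SRGN above AZU1 and AZU1 above CTSG, while PRTN3 was the highest in replicates 1 and 2 and below ELANE, SRGN and AZU1 in replicate 3. LYZ, lysozyme, stood far lower at 36.4 ± 12.2 TPM. MPO reached 6.94 ± 1.32 TPM, CEACAM6, a cell surface adhesion protein of the granulocyte lineage, 4.14 ± 0.352, and BPI, a lipopolysaccharide-binding bactericidal protein, 0.203 ± 0.0643. Ranked by TPM over all genes, PRTN3, ELANE, SRGN, AZU1 and CTSG stood between places 75 and 190 in every library, and MPO between 8253 and 11044. ELANE was thus 189 to 270 times as abundant as MPO per length in the EV libraries. In PTX4-OE this ratio was 282 to 389.

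The summed level of the 9 genes was 6058 to 7541 TPM in EV and 6079 to 7434 TPM in PTX4-OE, or 0.606% to 0.754% of all TPM over the 6 libraries. The serine protease family supplied 77.5% to 82.4% of that sum. In these bulk libraries fewer expressing cells and less RNA per cell cannot be told apart.

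**Figure D1:**
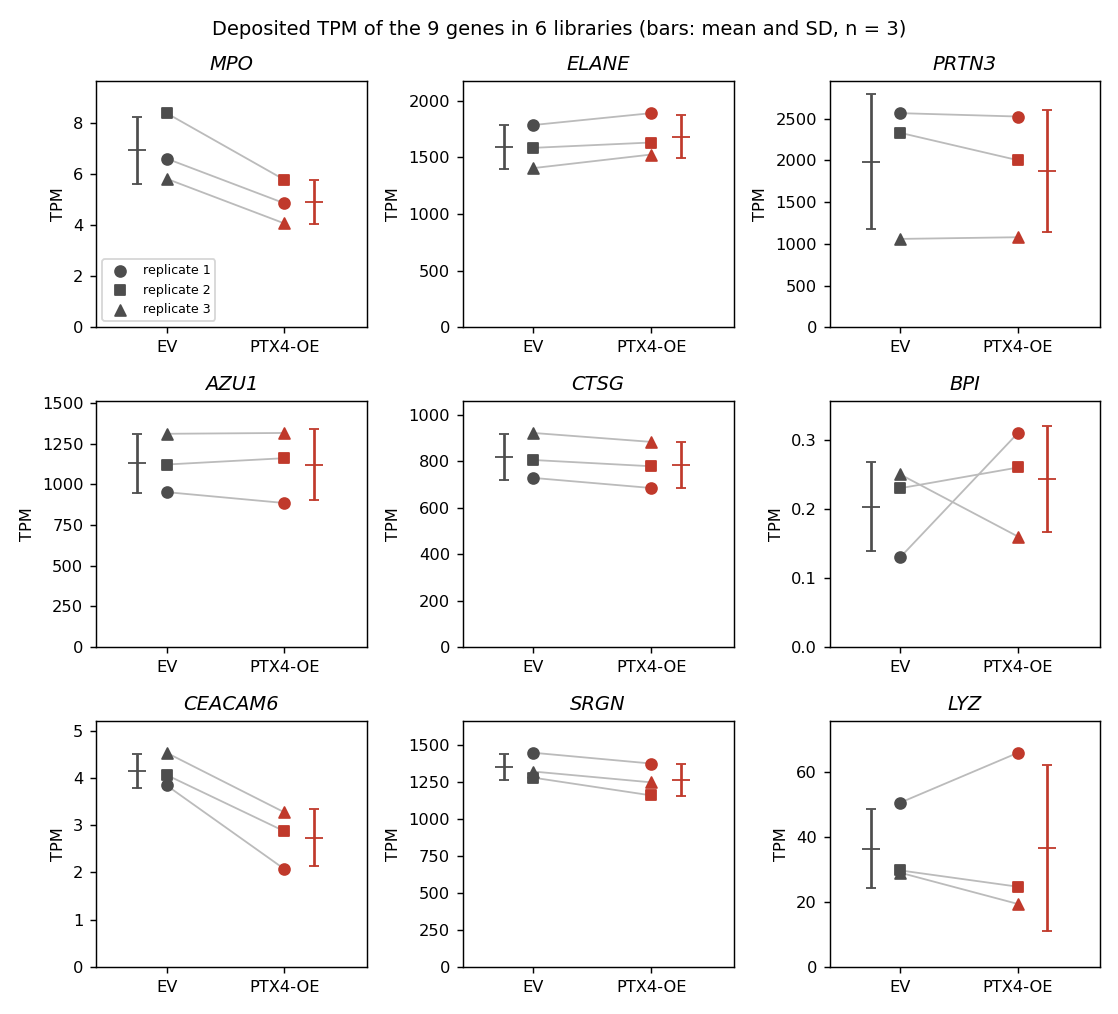
Deposited TPM (linear axis from 0) of the 9 genes in EV and PTX4-OE, with symbols for replicate numbers, grey lines joining libraries of the same number and bars for mean and SD (n = 3). MPO and CEACAM6 are lower in PTX4-OE along each line, while for PRTN3, AZU1 and CTSG the replicates lie further apart than the groups.

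MPO and CEACAM6 were the 2 genes of the set that were called lower in PTX4-OE, and only in the fit that takes replicate number as a block. MPO encodes myeloperoxidase, the haem enzyme that makes hypochlorous acid from hydrogen peroxide (ENSG00000005381.9, chromosome 17, 58269855 to 58280935, minus strand, GRCh38, protein coding). In order of replicate number, its counts were 490, 583 and 437 with EV and 403, 414 and 342 with PTX4-OE. Scaled for library size, this was 15.5, 19.9 and 12.9 CPM in EV against 11.2, 13.3 and 8.76 CPM in PTX4-OE. The groups overlapped, because PTX4-OE replicate 2 lay above EV replicate 3, but within each number the PTX4-OE library was the lower. The pair differences in log2 CPM were -0.47, -0.58 and -0.56. In edgeR with replicate number as a block, the log2 fold change was -0.54 (SE 0.079, 95% interval -0.70 to -0.37, Benjamini-Hochberg adjusted p = 0.00872), or 69.0% of the EV level. Without the block the value was -0.54 with an SE of 0.21, an unadjusted p of 0.0396 and an adjusted p of 1.00 in edgeR.

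CEACAM6 (ENSG00000086548.9, chromosome 19, 41750977 to 41772211, plus strand, protein coding) had 224, 222 and 268 counts in EV and 135, 162 and 217 in PTX4-OE, in the same order. In CPM this was 7.08, 7.56 and 7.91 against 3.76, 5.20 and 5.56. All PTX4-OE values lay below all EV values, and PTX4-OE replicate 1 was the lowest. With the block the log2 fold change was -0.65 (SE 0.12, 95% interval -0.91 to -0.39, edgeR adjusted p = 0.0417), or 63.9% of the EV level. Without the block it was -0.64 with an unadjusted p of 0.0111 and an adjusted p of 1.00 in edgeR, and an exact two-sided permutation test over the 6 libraries gave p = 0.1, the smallest that 3 against 3 allows. An antisense transcript within its span, ENSG00000268833, had 6 to 14 counts per library, and the sources used here do not say whether the libraries kept strand. A longer gene that runs through CEACAM6 on the same strand, ENSG00000267881, had 0 counts in every library.

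With the block, 41 of 17626 genes tested were called lower (0.233%) and 5 higher (0.0284%), and without it 0 (0%) were lower and PTX4 alone was higher (0.00567%). At an unadjusted p under 0.05 in edgeR without the block there were 131 of the 17626 genes, of which 89 were lower. Of the 8 granule genes tested 2 were lower with the block, 0 were higher and 6 did not pass, and BPI was not tested. Complete separation below EV, seen for CEACAM6 alone among the 8, occurred in 2.04% of all genes tested, and 0 of the 8 lay wholly above EV (2.08% of all genes tested). A lower value in each of the 3 pairs was found for MPO, CEACAM6, PRTN3, CTSG and SRGN, which is 5 of 8, against 14% of all genes tested, and a higher value in each pair for ELANE alone, against 16.3%. The median log2 fold change of the 8 was -0.11 with the block, and that of all genes tested was 0.0052. Because the genes were chosen with earlier results of these data known, these shares and medians are no test of the set.

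Both calls depended on which libraries were used. Leaving out the replicate 2 pair gave -0.51 for MPO (adjusted p = 0.108) and -0.70 for CEACAM6 (adjusted p = 0.143) on the log2 scale in edgeR, so both calls were lost. Without the pair of replicate 1, which holds the library with few mitochondrial counts, MPO was at -0.57 (adjusted p = 0.0131) and CEACAM6 at -0.52 (adjusted p = 0.145) in edgeR. Without the pair of replicate 3 both were called, MPO at -0.54 (adjusted p = 2.25e-04) and CEACAM6 at -0.74 (adjusted p = 0.00224) in edgeR. That fit called 167 genes lower in all, against 41 with every pair kept. Without replicate 1 it was 45 genes, and without replicate 2 it was 15. DESeq2 with the block kept MPO (adjusted p = 0.0280) and not CEACAM6 (adjusted p = 0.193). On log2(TPM + 1) with the block the values were -0.42 and -0.47 (limma adjusted p = 0.444 for each). This scale understates changes of genes at such low levels. The same fit called 0 genes of any level lower. In it RNASE2, a gene of the lists below at 175.3 to 312.6 TPM, was at -0.24 (limma adjusted p = 0.444).

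**Figure D2:**
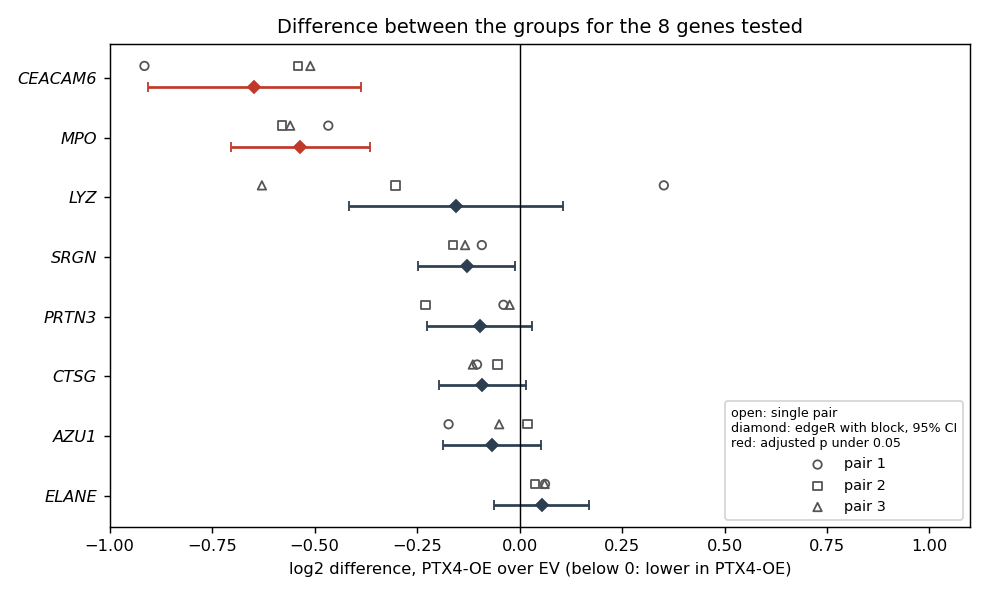
Log2 difference of PTX4-OE over EV for the 8 genes tested, with open symbols for the 3 pairs and diamonds with 95% intervals for edgeR with the replicate block. The intervals of CEACAM6 and MPO end at -0.39 and -0.37, LYZ and AZU1 have pairs on both sides of 0, and the estimates of SRGN, PRTN3, CTSG, AZU1 and ELANE lie between -0.13 and 0.054.

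The granule serine protease family differed little between the vectors. ELANE (ENSG00000197561.7, chromosome 19, 851014 to 856247), the protease that cleaves elastin and bacterial outer membrane proteins, had 930.5, 827.1 and 716.0 CPM in EV and 971.5, 849.1 and 746.9 CPM in PTX4-OE. It was the only member above EV in all 3 pairs, by a log2 fold change of 0.054 with the block (95% interval -0.061 to 0.17, edgeR adjusted p = 0.839). PRTN3 (ENSG00000196415.10, chromosome 19, 840999 to 848175), the autoantigen of granulomatosis with polyangiitis, had 1436, 1297 and 567.1 CPM in EV and 1398, 1107 and 557.7 in PTX4-OE. Its log2 fold change was -0.098 (95% interval -0.23 to 0.031, edgeR adjusted p = 0.698). In both groups replicate 3 was far below the others, while the vectors lay close together.

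AZU1 (ENSG00000172232.10, chromosome 19, 825097 to 832018) had 588.5, 698.1 and 763.2 CPM in EV and 522.0, 707.5 and 737.3 in PTX4-OE, with replicate 1 the lowest in both. CTSG (ENSG00000100448.4, chromosome 14, 24573518 to 24576250), a chymotrypsin-like protease, had 364.7, 400.2 and 441.7 CPM in EV and 339.4, 385.5 and 408.1 in PTX4-OE. Their log2 fold changes were -0.068 (95% interval -0.19 to 0.052) and -0.091 (95% interval -0.20 to 0.015), and neither passed (edgeR adjusted p = 0.795 and 0.640). The intervals of these 4 genes with the block leave out a change of the size seen in MPO, and that of PRTN3 without the block, -1.11 to 0.89, does not.

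SRGN (ENSG00000122862.6, chromosome 10, 69088103 to 69104805), whose chondroitin sulfate chains hold the basic granule proteins, had 1079, 952.9 and 938.9 CPM in EV and 1012, 851.5 and 856.2 in PTX4-OE. It was lower in each pair, by -0.092, -0.16 and -0.13, and did not pass (log2 fold change -0.13, 95% interval -0.25 to -0.011, edgeR adjusted p = 0.522).

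LYZ (ENSG00000090382.7, chromosome 12, 69348381 to 69354234), which encodes the enzyme that cuts bacterial peptidoglycan, was the most variable of the 9 between libraries. It had 48.2, 28.6 and 26.2 CPM in EV and 61.5, 23.2 and 16.9 in PTX4-OE. PTX4-OE replicate 1 held the highest value and PTX4-OE replicate 3 the lowest, and the pair differences changed sign, with 0.35, -0.30 and -0.63. The log2 fold change with the block was -0.15 (95% interval -0.42 to 0.11, edgeR adjusted p = 0.784). Without the pair of replicate 1 it was -0.46 and LYZ was called lower (edgeR adjusted p = 0.0367), in a fit that called 0.249% of genes lower, while leaving out the pair of replicate 3 gave 0.048. PTX4-OE replicate 1, where LYZ was highest, is also the library with the lowest mitochondrial share, and the part of that in the result was not tested. An antisense transcript in its span, ENSG00000257764, had 17.35 and 12.82 counts in EV replicates 1 and 2, the libraries in which the LYZ counts were fractional, and 0 in the other 4.

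BPI (ENSG00000101425.15, chromosome 20, 38304150 to 38337505) was close to the limit of detection, with 5, 8 and 10 counts in EV and 9, 6 and 7 in PTX4-OE, and it was below the filter on low counts. Scaled for depth, the ratio of the 22 summed PTX4-OE counts to the 23 of EV was 0.855, and its exact 95% interval of 0.454 to 1.60 covers counting error only. That interval holds both no change and a change of the size seen in MPO.

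Replicate number separated PRTN3, LYZ, ELANE, AZU1, CTSG and SRGN more than the vector did, but not CEACAM6. A test added after these values were seen compared the 3 replicate numbers in edgeR with the vector kept in the model. It called 7 of the 8 genes, against 51.5% of all genes tested, and CEACAM6 did not pass (edgeR adjusted p = 0.139). For CEACAM6, replicates 2 and 3 were at 0.26 and 0.35 relative to replicate 1. Its value between the vectors was -0.65. The log2 difference of replicate 3 over replicate 1 was -1.33 for PRTN3 (adjusted p = 2.52e-08), -1.38 for LYZ (adjusted p = 2.85e-06) and -0.38 for ELANE (adjusted p = 6.86e-04). AZU1 and CTSG were higher in replicate 3, by 0.44 (adjusted p = 1.97e-04) and 0.27 (adjusted p = 0.00497). MPO was at 0.30 in replicate 2 and -0.31 in replicate 3 relative to replicate 1 (adjusted p = 2.96e-04), and SRGN at -0.21 and -0.22 (adjusted p = 0.0164). Each MPO value was smaller in size than that between the vectors, -0.54. The labels give all libraries the same batch number and do not say what a replicate number stands for. The numbers were taken to pair libraries because same-numbered libraries deviated together in these same data. The test between numbers is thus no separate support for the pairing.

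The order of AZU1 and PRTN3 differed between replicate numbers. In EV the ratio of AZU1 to PRTN3 in TPM was 0.371, 0.482 and 1.24, and in PTX4-OE it was 0.351, 0.580 and 1.22, each by replicate number. In replicate 3 of either group AZU1 was thus the more abundant, and in the other 4 libraries PRTN3 was. These ratios are taken within a library and do not depend on scaling between libraries.

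**Figure D3:**
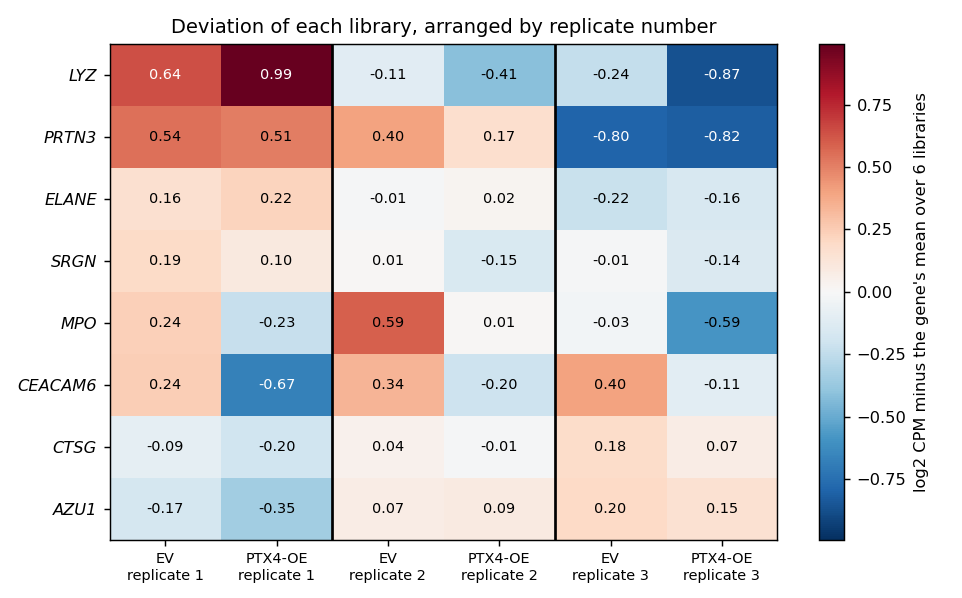
Log2 CPM of 8 genes in each library minus the mean of that gene over the 6 libraries (red above, blue below), with columns arranged by replicate number. LYZ and PRTN3 are above their mean in both replicate 1 libraries and below it in both replicate 3 libraries, AZU1 and CTSG show the reverse, and CEACAM6 is below its mean in all 3 PTX4-OE libraries.

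AZU1, PRTN3 and ELANE lie in this order within a single cluster on the short arm of chromosome 19, on the plus strand, with no other tested gene between them. The tested genes that flank the cluster were PLPPR3, a phospholipid phosphatase-related membrane protein, and CFD, which encodes the serine protease complement factor D. With the block CFD was at 0.028 (SE 0.047) and PLPPR3 at 0.11 (SE 0.051), and neither passed (edgeR adjusted p = 0.921 and 0.560). Neither flank passed the test between replicate numbers (edgeR adjusted p = 0.172 for CFD and 0.132 for PLPPR3), whereas the 3 genes inside did, AZU1 in the direction opposite to PRTN3 and ELANE. Around MPO, the peroxidase gene LPO was at -0.18 (SE 0.21) and TSPOAP1 at -0.19 (SE 0.13), and neither passed (edgeR adjusted p = 0.863 and 0.741). LPO had only 47 to 119 counts per library.

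**Figure D4:**
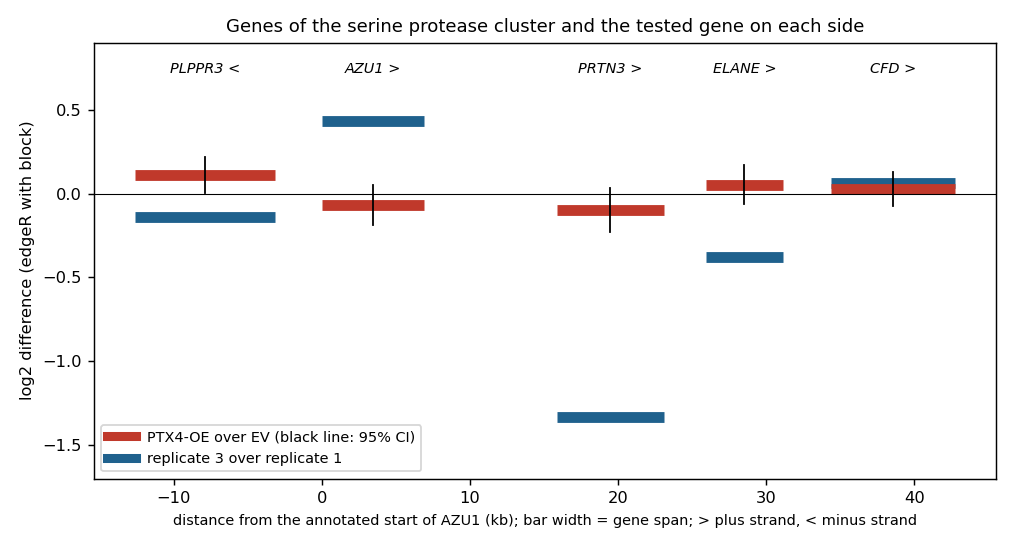
Log2 differences (edgeR with the replicate block) of the 5 genes tested in and beside the AZU1, PRTN3 and ELANE cluster, against distance from the start of AZU1 in kb. The differences between vectors (red, with 95% intervals) lie between -0.098 and 0.11, and those of replicate 3 over replicate 1 (blue) run from -1.33 for PRTN3 to 0.44 for AZU1.

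Other granule and precursor genes were read from 5 lists, which were also chosen with earlier results of these data known. Of their 76 tested genes 4 were lower with the block (0.233% of all genes tested), with 0 higher (0.0284%). Among 13 tested genes of other azurophil proteins, RNASE2, the eosinophil-derived neurotoxin, was lower (-0.26, SE 0.050, edgeR adjusted p = 0.0427), with 287.1, 312.6 and 196.9 TPM in EV and 251.1, 241.7 and 175.3 in PTX4-OE. The other 12 did not pass. They include ARSA, a lysosomal sulfatase (-0.21, SE 0.061), MAN2B1, a lysosomal mannosidase (-0.12, SE 0.053), and CD68, a membrane protein of lysosomes (-0.00091, SE 0.055). RNASE3, the eosinophil cationic protein, was at 0.036 (SE 0.22) and PRSS57, a serine protease of azurophil granules, at 0.065 (SE 0.19). All 4 defensin genes of the list, DEFA1, DEFA1B, DEFA3 and DEFA4, were at 0 counts in every library. The list median was -0.054, with 11 of 13 values negative, against 48.1% of all genes tested.

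Of 22 tested genes for the maturation, inhibition and packing of granule proteins, SERPINB8, an intracellular serpin, was lower (-0.29, SE 0.055, edgeR adjusted p = 0.0427). The other 21 did not pass. CTSC, the dipeptidyl peptidase that activates the granule serine proteases, was at -0.11 (SE 0.049, edgeR adjusted p = 0.536) and is named here after its value was seen. SLPI, a secreted inhibitor of elastase and cathepsin G, was at -0.46 (SE 0.13, edgeR adjusted p = 0.221), and SERPINA1, the plasma inhibitor of elastase, at -0.30 (SE 0.32). The highest values were those of AP3D1, a subunit of the AP-3 adaptor for cargo of lysosome-related organelles (0.12, SE 0.046), CANX, a chaperone that folds the MPO precursor (0.047, SE 0.057), and HAX1, a mitochondrial protein lost in a form of severe congenital neutropenia (0.040, SE 0.053). The list median was -0.038, with 15 of 22 values negative.

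Genes of the later granules were mostly silent. Of 20 specific and gelatinase granule genes 13 were below the filter, and 6 of them, including CEACAM8, MMP8 and OLFM4, had 0 counts in every library. Of the 7 tested 0 passed, and the median was -0.25, with 5 of 7 values negative. ORM1, an acute phase glycoprotein with a near-identical neighbour copy that makes its counts uncertain, was at -0.54 (SE 0.19), TCN1, a vitamin B12 carrier protein, at -0.32 (SE 0.27) and CYBB, the catalytic subunit of the phagocyte oxidase, at -0.31 (SE 0.19). SLC11A1, a metal transporter of phagosomes, was at -0.22 (SE 0.11), CYBA, the partner of CYBB, at 0.020 (SE 0.047) and ARG2, a mitochondrial arginase, at 0.22 (SE 0.20). In level CYBA was an exception in this list, with 363.7 to 621.0 TPM over the libraries.

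Of the 19 tested transcription regulators of the granulocytic and monocytic lineages 0 passed in either direction, and their median was -0.0073. Of the 19 values 11 were negative. The lowest were ID1 (-0.32, SE 0.093), an inhibitor of helix-loop-helix factors, KLF4 (-0.22, SE 0.074) and IRF8 (-0.076, SE 0.052), which both drive monocyte differentiation. The highest were LEF1 (0.27, SE 0.12), a Wnt pathway factor needed for neutrophil maturation, CEBPB (0.090, SE 0.050), a factor of emergency granulopoiesis, and MYB (0.087, SE 0.052), a factor of immature myeloid cells. CEBPE, which drives the specific granule genes, had 2 to 12 counts per library and was not tested.

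Of 15 tested progenitor genes outside the granule, MS4A3 and CSF3R were lower with the block, and 13 did not pass. MS4A3, a membrane protein of granulocyte-monocyte progenitors, had 14.55, 13.82 and 11.01 TPM in EV and 12.76, 6.43 and 5.64 in PTX4-OE. The groups overlapped through PTX4-OE replicate 1, and the log2 fold change was -0.84 (SE 0.16, edgeR adjusted p = 0.0427). CSF3R, the receptor for the neutrophil growth factor G-CSF, had 36.1, 49.8 and 81.4 TPM in EV and 25.2, 42.0 and 68.7 in PTX4-OE, and was at -0.37 (SE 0.055, edgeR adjusted p = 0.00902). The receptor tyrosine kinase gene FLT3 was at -0.30 (SE 0.11). The highest values were those of CSF2RA (0.037, SE 0.064), a subunit of the GM-CSF receptor, CD33 (0.037, SE 0.063) and CFD as given above. CD34 was at 0 counts in every library, and the list median was -0.13, with 12 of 15 values negative. Without the block 0 genes of the 5 lists passed. Without the pair of replicate 2, MS4A3 (-0.66), RNASE2 (-0.21) and SERPINB8 (-0.22) lost their calls (edgeR adjusted p = 0.313, 0.347 and 0.347), and CSF3R did not (-0.41, edgeR adjusted p = 0.0346). MS4A3 did not pass in DESeq2 with the block either (-0.88, adjusted p = 0.633). Summed over 13 mitochondrially encoded mRNAs, the level was 106991 to 131320 TPM in EV and 64574 to 118751 in PTX4-OE, and MT-ND1 (-0.52, SE 0.099, edgeR adjusted p = 0.0427) was the 1 of 13 called lower with the block. All 13 values were negative with the block, with a median of -0.32. By pair the medians were uneven, at -0.83 in pair 1, which holds the library with few mitochondrial counts, and -0.067 and -0.17 in pairs 2 and 3. The part of the mitochondrial share in the list results was not tested. In a blocked fit on nuclear genes alone, MPO was at -0.54 (edgeR adjusted p = 0.00796) and CEACAM6 at -0.65 (edgeR adjusted p = 0.0458).

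**Figure D5:**
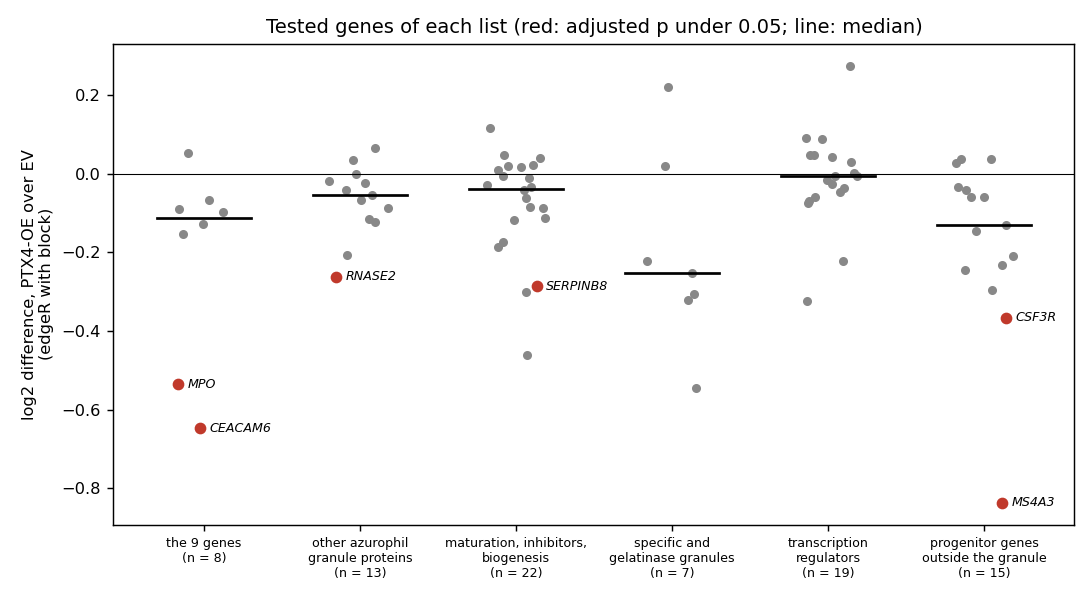
Log2 difference of PTX4-OE over EV (edgeR with the replicate block) for each tested gene of the 9 genes and of 5 further lists, with medians as lines and genes under an adjusted p of 0.05 in red. The red points, MPO, CEACAM6, RNASE2, SERPINB8, MS4A3 and CSF3R, all lie below 0.

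The pattern of MPO over the 6 libraries was most like that of THBS4, ENSG00000291072, PTGES3L, ADA2 and SMIM8 among 11344 other genes with a mean of 5 CPM or more. Pearson's r of log2 CPM over 6 libraries was 0.992, 0.986, 0.975, 0.973 and 0.968. These are the highest of 11344 values and are given with no test, and libraries share their group or replicate number. Among the granule genes the values with MPO were 0.59 for PRTN3, 0.56 for CEACAM6, 0.41 for SRGN, 0.26 for LYZ, 0.23 for ELANE, 0.0073 for CTSG and -0.026 for AZU1. AZU1 and CTSG, on different chromosomes, had an r of 0.946 with each other, and AZU1 had one of -0.747 with PRTN3, the next gene in the cluster, and of -0.930 with ELANE. ELANE and PRTN3 had an r of 0.914. These values are a description of 6 libraries, 2 for each replicate number.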

How the data were processed

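Poly(A) RNA of 6 libraries was sequenced from both ends, per the labels' protocols, and the authors deposited tables with 78686 Ensembl gene rows. GRCh38, STAR, featureCounts and FastQC 0.11.5 are listed in the submitters' processing notes. Versions of the aligner and counter, settings, strand and annotation release are not given in the sources used here. Estimated counts were deposited by the authors without normalization, and 7.94% of them are not whole. The authors also deposited TPM, scaled for gene length and to a fixed sum. Coordinates came from GENCODE 44 on GRCh38, and 33 pseudoautosomal pairs were summed.

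Rounded counts were compared in edgeR 4.0.16, run under R 4.3.3 (filterByExpr, TMM, quasi-likelihood test, Benjamini-Hochberg adjustment over all 17626 genes tested, threshold 0.05). The standard error is the log2 fold change over the root of F, and the 95% interval uses the moderated degrees of freedom. CPM are counts scaled to library size with the TMM factors. The design had no block. Deviations of same-numbered libraries from their group means correlated by 0.640, 0.113 and 0.718, all over the limit of 0.1, so the numbers, which come from the labels, were taken to pair the libraries. EV replicate 2 correlated more with PTX4-OE replicate 1, by 0.139, than with PTX4-OE replicate 2, so number 2 is the least certain pair. No 2 libraries agreed within sampling noise (smallest chi-square per degree of freedom 6.54). Alternatives used DESeq2 1.42.0, limma 3.58.1, other scaling and filters, and left-out libraries. Scripts ran in Python 3.11.15 and were tested on simulated data. The members and lists were chosen with earlier results of these data known. Named were all members, genes of the lists that passed or were among the 3 lowest or highest by log2 fold change with the block, flanking genes, and the 5 genes most like MPO.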

Additional observations from a re-analysis of the deposited data

How the results depend on the processing

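With the replicate block, 41 genes were lower and 5 higher, of which 2 granule genes were lower. Without it, DESeq2 called 2 genes lower, the fit without a filter 1, and limma-voom 0 higher. With the block, 40 genes were lower and 5 higher under RLE factors and also without the mitochondrial genes, 51 and 14 with limma-voom, 192 and 106 without a filter, and 32 and 6 with DESeq2. Granule genes called lower numbered 2 in each of these, except 1 with DESeq2. On log2(TPM + 1) with the block 0 genes were lower. With the pair of replicate 1, 2 or 3 left out, 45, 15 and 167 genes were lower, 17, 8 and 41 higher, and 0 to 2 granule genes lower. With 1 library left out and no block, 0 genes were lower, 1 higher and 0 granule genes lower. The causes were not tested.

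The sign of 4 genes that did not pass depended on the libraries. With 1 library left out and no block, log2 fold changes ran from -0.16 to 0.089 for AZU1, -0.038 to 0.14 for ELANE, -0.42 to 0.18 for PRTN3 and -0.76 to 0.29 for LYZ, and with 1 pair left out LYZ ran from -0.46 to 0.048. MPO and CEACAM6 stayed negative under all 24 alternatives, and with the block MPO passed under 8 of 10 settings and CEACAM6 under 6 of 10. The smallest and largest adjusted p with the block were 1.16e-06 and 0.444 for MPO, and 3.86e-05 and 0.444 for CEACAM6. BPI had 5 to 10 counts per library and was not tested. The upper-quartile and 1 CPM settings were run only without the block, where 0 granule genes were called in any setting. They changed no call there and do not bear on the calls with the block.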
